A study of Cubamyces sp. BRFM 1775 with 14 samples.

Results

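The response of Leiotrametes sp. BRFM1775 to cellulose was measured as the difference, for each of 1052 genes, between its normalised log2 read count on cellulose and that on maltose. All 1052 genes of the deposited table were used, and 6 of the 14 labelled samples carry these substrate labels, 3 on cellulose and 3 on maltose. Mycelium of this wood-decaying fungus was grown for 3 days at 30 °C in shaken flasks of 100 ml mineral medium. The cellulose cultures held 15 g/l Avicel, a microcrystalline cellulose, with 2.5 g/l maltose, and the maltose cultures held 20 g/l maltose as the main carbon source. The added cellulose and the lower maltose concentration changed together, so their shares in a difference cannot be told apart. The other cultures held 15 g/l of ground wheat straw or pine with 2.5 g/l maltose, or 15 g/l milled aspen with a maltose concentration that the labels misprint. All cultures were of 1 strain, and mycelium was frozen with what was left of the solid substrate. The labels do not tell whether replicates were grown in flasks of their own. The p-values therefore cover the spread among libraries alone, and that spread may be technical.

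Maltose is a soluble sugar made of glucose units that a fungus can use readily. Cellulose is insoluble and has to be cut outside the cell by secreted enzymes, among them glycoside hydrolases that release cellobiose and lytic polysaccharide monooxygenases that oxidise the crystalline surface. In fungi, the genes of such enzymes are commonly held low while easily used sugars are plentiful and are switched on when polymer breakdown products appear. The table identifies its genes by protein number and does not pair the numbers with names, so no enzyme family is assigned to any gene here.

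The deposited values behave arithmetically as means over the libraries of a substrate. The whole reads of single libraries were solved from these means for all 1052 genes on cellulose, in 2 libraries, and for 898 genes on maltose, in 3 libraries. The labels name 3 samples on cellulose, and the column does not show which of them it leaves out. The remaining 154 genes on maltose kept the deposited mean only, and 139 of them had a value above 12, for which the reads were not sought. Library numbers here run by size factor, from the lowest, and do not stand for labelled replicates. The size factors were 1.08 and 1.17 on cellulose and 0.426, 1.00 and 1.61 on maltose. The cellulose libraries held 6137774 and 5047963 reads over the 1052 genes, and their medians over genes were 527 and 583.5 reads. On maltose the median solved gene had 98, 196.5 and 313.5 reads, so maltose library 1 was the least deeply sequenced of the 5. The median standard deviation (SD) between libraries was 0.29 on cellulose and 0.19 on maltose, in log2 units.

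Maltose library 1 stood apart from the other maltose libraries in the genes that were far higher on cellulose. In 34 of the 35 genes called at least 64-fold higher on cellulose (limma adjusted p below 0.05), the maltose reads were solved. Of these 34 genes, 33 had their highest maltose value in library 1, and its value lay above the mean of libraries 2 and 3 by a median of 3.04 log2 units. Over all 898 solved genes, 41.2% were highest in library 1, and the median excess was 0.05. In normalised reads, the excess was 1.17% of the level in cellulose library 1 by the median over the 34 genes, with quartiles of 1.11% and 1.29% and a range of 0.216% to 1.77%. Against cellulose library 2 the median was 1.75%, with quartiles of 1.39% and 2.39% and a range of 0.385% to 5.81%. The SD of the log2 ratio was 0.47 against cellulose library 1 and 0.87 against cellulose library 2. Against each library of the plant materials it was at least 2.05, the pine ratios being limited to 19 genes and the aspen ratios to 11 genes solved there. In 9 of the 34 genes the level was at least 2-fold higher in cellulose library 1 than in library 2, and there the excess had a median of 1.24% of library 1 and 2.96% of library 2. In the 1 gene with at least 2-fold more in cellulose library 2, it was 1.15% of library 1 and 0.385% of library 2. That gene had 6, 5 and 3 reads in the maltose libraries, so its excess rests on few reads. Among 29 solved genes that were at least 16-fold higher on pine than on both cellulose and maltose, 12 were highest in maltose library 1, and the median excess over the 29 genes was 0.13. Whether maltose library 1 holds some RNA or reads of a cellulose library was not tested. The maltose levels and folds of the strong rises depend on it, and they are given below with and without this library. Values without it are means of maltose libraries 2 and 3 where reads were solved, and the deposited mean elsewhere.

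**Figure D1:**
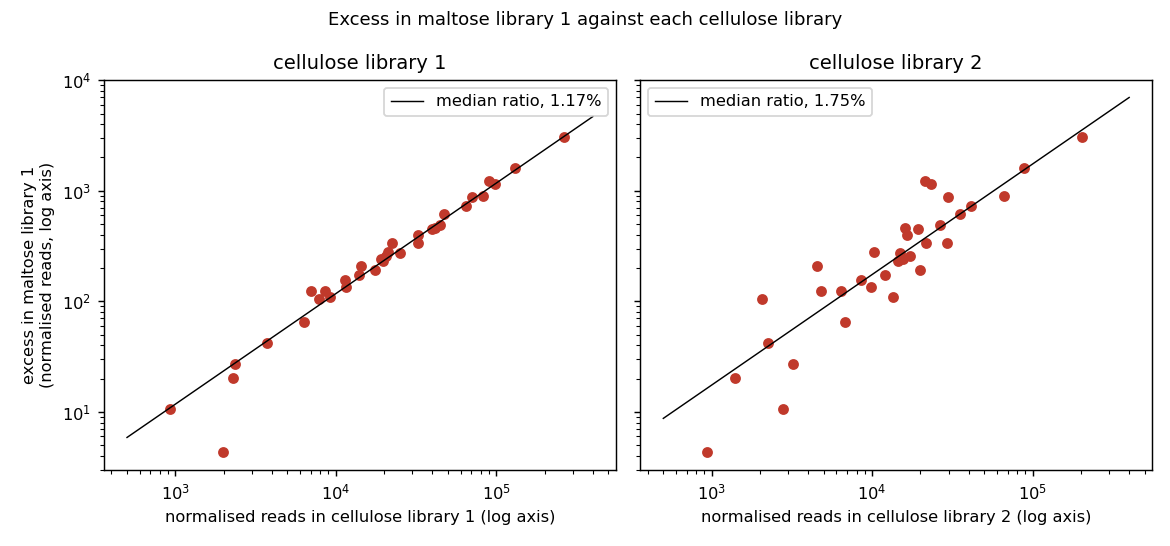
Excess of maltose library 1 over the mean of maltose libraries 2 and 3, in normalised reads, for the 34 solved genes at least 64-fold higher on cellulose, against their normalised reads in cellulose library 1 (left) and library 2 (right); each point is a gene, both axes are logarithmic, and the line is the median ratio. Points lie close to the 1.17% line for cellulose library 1 and scatter more widely around the 1.75% line for library 2.

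Most genes differed little between cellulose and maltose, and the largest differences were rises on cellulose. The difference was below 2-fold in either direction for 765 genes, or 72.7%. Its median over all genes was 0.10 log2 units, with quartiles of -0.33 and 0.68. The tails were unequal: the 95th percentile lay at 3.72 and the 5th at -1.31, and the extremes were 9.57 and -3.07. A gene was called when limma's moderated test, with all 13 recovered libraries of the 5 substrates in 1 fit, gave a Benjamini-Hochberg adjusted p below 0.05 and the log2 difference was at least 1. This called 226 genes (21.5%), of which 166 rose on cellulose (15.8%) and 60 fell (5.70%). A further 61 genes passed the size threshold without being called. The median standard error (SE) of the difference was 0.28.

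**Figure D2:**
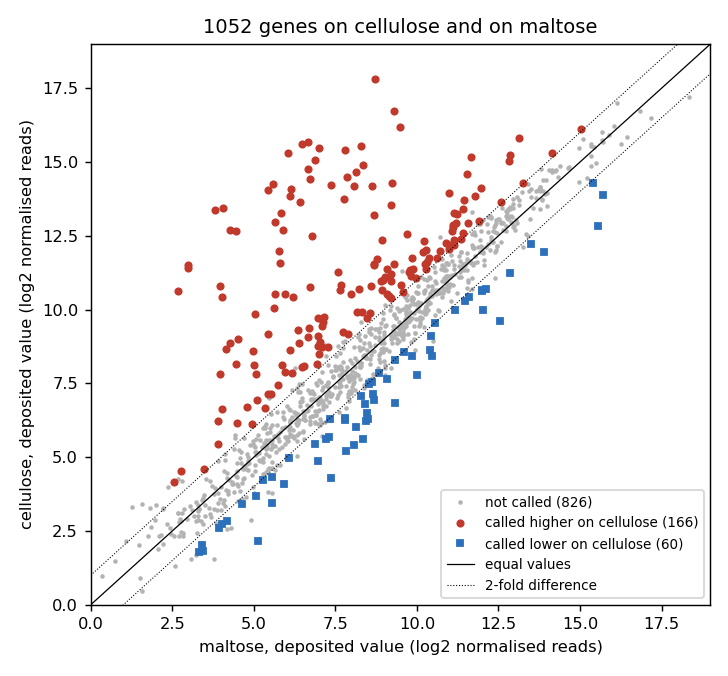
Deposited value of each gene on cellulose (vertical) against maltose (horizontal), in log2 normalised reads, with the 166 genes called higher on cellulose in red, the 60 called lower in blue and the others in grey. The genes called higher reach far above the line of equal values at low and middle maltose levels, while the genes called lower stay near the lower line of 2-fold difference.

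The direction of the smaller differences depended on the scaling of the libraries. As deposited, 73.5% of the calls were higher on cellulose. When each library was moved by the median of its deviations from the gene means (median shift), the share was 61.6%, with 151 higher and 94 lower calls. Quantile normalisation gave 44.8%, with 124 higher and 153 lower. Setting the median of every library to 1 value (median centring) gave 35.6%, with 113 higher and 204 lower. The median difference over genes moved by -0.19 with the median shift, by -0.49 with quantile normalisation and by -0.61 with median centring. Of the 166 genes that rose, 108 were called higher under all 4 scalings, and their smallest difference as deposited was 1.62. All 60 genes that fell were called lower under all 4. Every other scaling moved the median difference down, so this outcome was nearly fixed and says little of how firm the falls are. At least 4-fold, 97 genes rose (9.22%) and 16 fell (1.52%) as deposited, against 72 and 44 with median centring. At least 64-fold, 35 rose (3.33%) and none fell, and with median centring 30 rose.

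**Figure D3:**
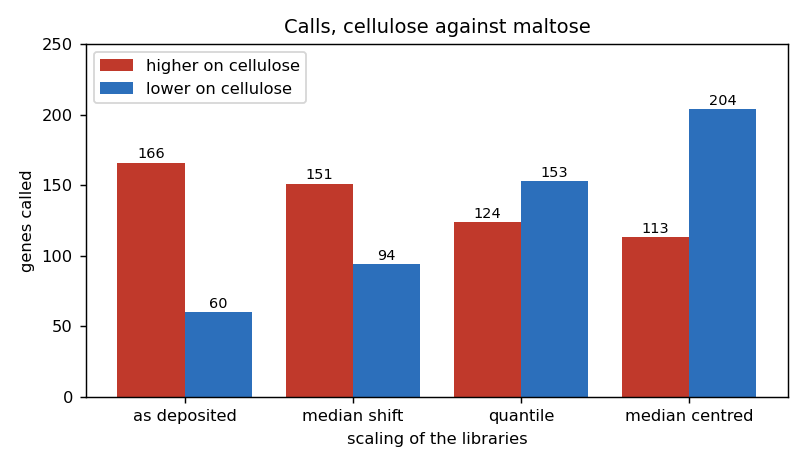
Number of genes called higher (red) and lower (blue) on cellulose than on maltose under 4 scalings of the libraries. Higher calls outnumber lower ones as deposited, 166 against 60, and lower calls outnumber higher ones with median centring, 204 against 113.

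The numbers of rises and falls were counted by abundance. When the genes were split into 4 classes of 263 by their mean level over the 5 substrates, 12 rose and 20 fell in the lowest class, 35 rose and 21 fell in the second, 62 rose and 9 fell in the third, and 57 rose and 10 fell in the highest. With median centring 5 rose and 74 fell in the lowest class, and 39 rose and 31 fell in the highest. With quantile normalisation 13, 30, 47 and 34 genes rose and 31, 52, 37 and 33 fell, in order from the lowest class, so the falls were not concentrated in the lower classes there. The mean that sets the classes includes the cellulose and maltose values, so a rise lifts a gene's class and a fall lowers it. The median SE was 0.41 in the lowest class and 0.22 in the highest, so smaller differences could be called in abundant genes. The highest class had means from 11.23 to 17.35, and values above 12 were not solved on maltose, pine or aspen. The SE of many of its genes therefore rests on fewer libraries.

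The 35 genes that rose at least 64-fold were abundant on cellulose, with ranks down to 370 of 1052. They were chosen by their difference, so a higher rank and share on cellulose than on maltose follow from that choice. The choice favours high values on cellulose as well as low values on maltose. Their deposited values lay between 10.42 and 17.83 on cellulose, with a median of 14.19, and between 2.67 and 9.48 on maltose, with a median of 6.13. Without maltose library 1 the maltose median was 5.22. The median rank of these genes by abundance was 63 of 1052 on cellulose and 769 on maltose, or 861 on maltose without library 1. When deposited values were converted to linear normalised reads and summed, these genes made up 21.9% of the sum on cellulose and 0.148% on maltose, or 0.0859% on maltose without library 1. In the cellulose libraries themselves they held 23.6% and 19.9% of the reads on the 1052 genes. How these 1052 genes were chosen is not known, so such shares do not extend to all transcripts. All 166 genes that rose together held 37.0% of the summed values on cellulose and 5.72% on maltose (5.56% without library 1). They held 39.2% and 34.7% of the reads on the 1052 genes in the cellulose libraries. The 60 genes that fell held 1.46% of the sum on cellulose and 6.80% on maltose.

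Where reads on maltose were solved, the strong rises were larger without maltose library 1. The median difference of the 34 solved genes was 7.72 with it and 8.74 without it, and the median SE was 0.87 with it and 0.39 without it. Maltose library 1 had the highest maltose value in 33 of these 34 genes. Leaving it out therefore raises their difference and tends to lower the SE by construction. The group was chosen by calls in the full fit, and all 34 were also called without maltose library 1. Genes with almost no reads on maltose were few. Of 29 genes with at most 10 reads in every maltose library, 2 rose on cellulose, and none had 1000 reads in both cellulose libraries. Of these 29, 17 had at most 10 reads in both cellulose libraries too. With maltose library 1 left out of this count, 32 genes had at most 10 reads in libraries 2 and 3. Of these 32, 5 rose and 3 had at least 1000 reads in both cellulose libraries. Over all 1052 genes 15.8% rose, and counts of 2 and 5 are too few to set these genes apart.

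Gene 1319085 rose the most of all genes whose call held without any single cellulose or maltose library and whose libraries did not overlap between the substrates. Cellulose libraries 1 and 2 held 12400 and 11505 reads of it, and there were 59, 2 and 9 reads in maltose libraries 1, 2 and 3. Maltose library 1 was the highest of its group. Lack of overlap was part of the rule that chose this gene, and was found in 503 of the 898 solved genes (56.0%). The log2 difference was 9.57 (SE 1.31, limma adjusted p = 0.000584), or 11.22 without maltose library 1. Its level was 13.38 ± 0.16 on cellulose (SD, n = 2) and 3.81 ± 2.93 on maltose (SD, n = 3). On the plant materials it had 2639 and 6668 reads in the wheat straw libraries and 960, 1291 and 1458 in the pine libraries, and its deposited value on aspen was 11.77. It ranked 107 of 1052 on cellulose and 973 on maltose.

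Gene 1250928 was the next. Its reads numbered 9966 and 15781 on cellulose and 49, 5 and 9 on maltose. The highest maltose value was again in library 1, and the rule allowed no overlap between substrates. The log2 difference was 9.39 (SE 1.22, limma adjusted p = 0.00133), or 10.79 without maltose library 1. The level was 13.45 ± 0.38 on cellulose (SD, n = 2) and 4.06 ± 2.43 on maltose (SD, n = 3). Its deposited values were 12.77 with straw, 11.59 with pine and 12.33 with aspen, so that cellulose was the highest of the 5 substrates for both of these genes.

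Gene 1257860 fell the most under the same rule, to 43 and 69 reads in the cellulose libraries, against 132, 352 and 517 in the maltose libraries. After normalisation these were 39.9 and 58.9 reads on cellulose and 310, 352 and 322 on maltose. The rule required groups without overlap, and the maltose libraries lay close together. The log2 difference was -2.73 (SE 0.22, limma adjusted p = 5.5e-06), a 6.64-fold lower level. The gene was low on every substrate other than maltose: its deposited values were 5.63 with cellulose, 6.08 with wheat straw, 5.22 with pine, 5.15 with aspen and 8.36 with maltose.

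Gene 1340264 was the next to fall, with 52 and 43 reads on cellulose and 143, 199 and 478 on maltose. The difference was -2.66 log2 units (SE 0.54, limma adjusted p = 0.00365). The level was 5.43 ± 0.27 on cellulose (SD, n = 2) and 8.09 ± 0.39 on maltose (SD, n = 3). Unlike gene 1257860 it was low on cellulose alone: its deposited values were 7.87 with straw, 7.51 with pine and 9.27 with aspen. The wheat straw libraries of this gene differed, with 579 and 167 reads.

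**Figure D4:**
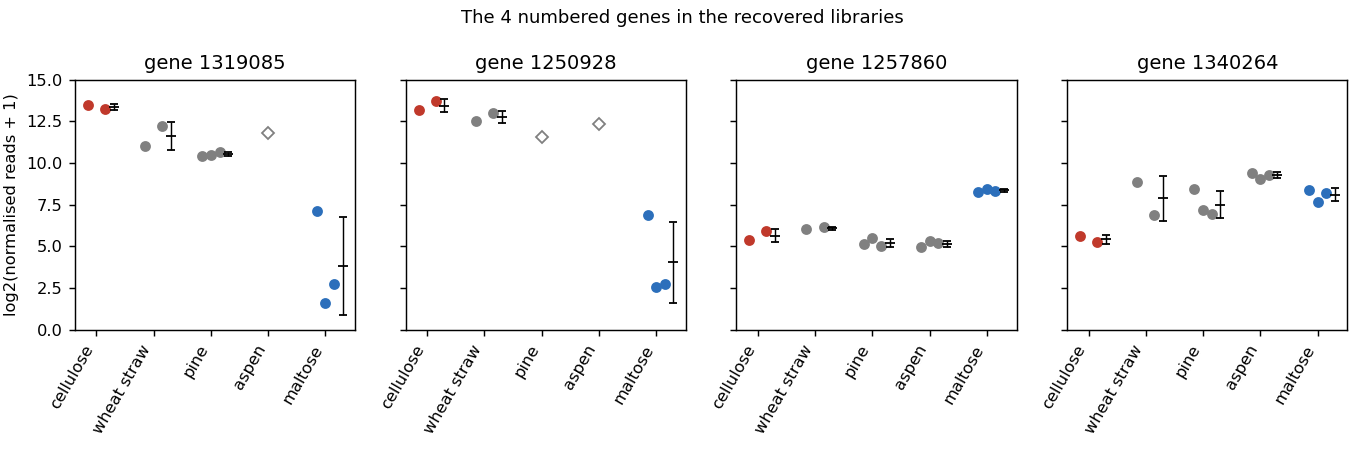
log2(normalised reads + 1) of the 4 numbered genes in each recovered library (points), with the mean and SD beside them, and the deposited mean alone (open diamonds) where the libraries were not solved. Cellulose (red) lies above maltose (blue) for genes 1319085 and 1250928 and below it for genes 1257860 and 1340264, and maltose library 1, the leftmost blue point, is the highest of its group for the first 2 genes.

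The most abundant transcripts were a mixture of strongly risen genes and of genes that were abundant on both substrates. These genes are given by rank, without their numbers, and were chosen after their values were seen. Among the 1052 genes, the most abundant in both cellulose libraries had 285364 and 239033 reads there, and 1380, 112 and 332 reads on maltose. It held 4.65% and 4.74% of the reads on the 1052 genes in the cellulose libraries. Its log2 difference was 9.10 (SE 1.30, limma adjusted p = 0.00214), and its rank on maltose was 477. Without maltose library 1 the difference was 10.57 and the rank 633. The fifth and eighth most abundant genes on cellulose also rose at least 64-fold, by 7.42 (SE 0.74, limma adjusted p = 0.000364) and 6.69 (SE 0.45, limma adjusted p = 4.92e-05). Without maltose library 1 these differences were 8.24 for the fifth and 7.17 for the eighth. The eighth had 89074 and 77325 reads on cellulose and 598, 526 and 796 on maltose.

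Another 5 genes were among the 10 most abundant on both substrates. None of them was called, against 21.5% of all genes, and 5 genes are too few to set them apart. The third most abundant on cellulose missed the size threshold only, with a difference of 0.87 (limma adjusted p = 0.0424). The most abundant gene on maltose was second on cellulose, at deposited values of 17.19 on cellulose and 18.33 on maltose, a difference of -1.13 (SE 0.43, limma adjusted p = 0.143). Of the 10 most abundant genes on maltose, 1 fell and none rose, against 5.7% and 15.8% of all genes. The gene that fell was at 13.90 on cellulose and 15.70 on maltose, a difference of -1.80 (SE 0.33, limma adjusted p = 0.00671). The maltose reads of these abundant genes were not solved, so their spread on maltose is missing and came from the other substrates. A missed threshold does not show that such genes were equal on cellulose and maltose.

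The levels of the called genes on the plant materials were set beside those on cellulose and maltose. All comparisons with maltose share the maltose libraries, and the genes were chosen by their cellulose and maltose values, so this is a description. Over the 166 genes that rose, the median deposited value was 11.41 for cellulose, 11.16 for straw, 10.84 for pine, 10.88 for aspen and 7.78 for maltose. Over all 1052 genes it was 8.92 for cellulose, 9.20 for straw, 9.30 for pine, 9.13 for aspen and 8.30 for maltose. Cellulose was the highest of the 5 substrates for 94 of the 166 genes, pine for 31, aspen for 23 and wheat straw for 18. Over all 1052 genes cellulose was the highest for 21.5%, pine for 33.6%, aspen for 19.8%, wheat straw for 8.75% and maltose for 16.4%. Genes that rose moderately on cellulose thus included many with still higher levels on a plant material.

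The 35 strongest rises had their lowest median among the plant materials on pine. There the median deposited value was 11.11, with 12.65 on wheat straw and 12.45 on aspen, and it was 14.19 on cellulose and 6.13 on maltose. For 30 of the 35 genes cellulose was the highest substrate, and for all 35 maltose was the lowest, with and without maltose library 1. On wheat straw 14 of them were within 2-fold of the cellulose value, on aspen 8 and on pine 4. On pine 7 were at least 16-fold below the cellulose value, on aspen 5 and on wheat straw 3. The gene that stood furthest above the plant materials reached 15.42 with cellulose, 10.18 with wheat straw, 8.52 with pine, 7.97 with aspen and 7.80 with maltose, or 6.51 with maltose when library 1 was left out. Its cellulose reads were 96994 and 24926, a difference between libraries of the same substrate that exceeds the median spread. At the other end, 1 gene reached 10.65 with cellulose, 12.65 with wheat straw, 9.75 with pine, 12.45 with aspen and 2.67 with maltose (2.05 without library 1), with 999 and 3245 reads in the cellulose libraries.

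The 60 genes that fell had a median deposited value of 6.82 with cellulose, 7.48 with wheat straw, 7.95 with pine, 7.94 with aspen and 8.47 with maltose. Cellulose was the lowest substrate for 32 of them, aspen for 12, pine for 10 and wheat straw for 6. Maltose was the highest for 36 of the 60, against 16.4% of all genes, and cellulose was the lowest for 21.1% of all genes. Minus maltose, their median was -1.48 for cellulose, -0.81 for straw, -0.96 for pine and -0.59 for aspen.

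**Figure D5:**
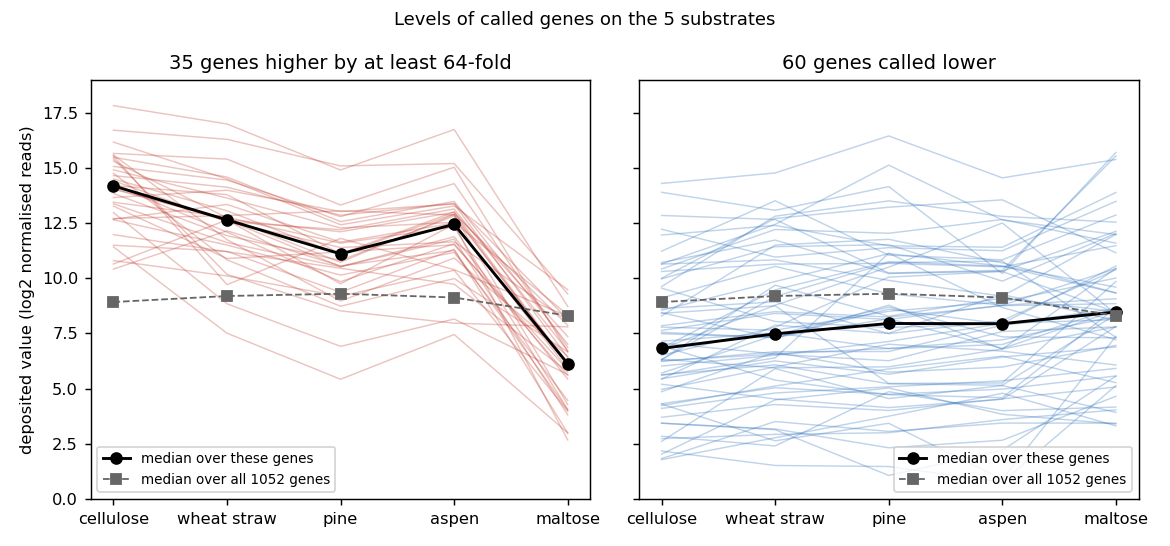
Deposited values, in log2 normalised reads, of the 35 genes that rose at least 64-fold (left) and the 60 that fell (right) on the 5 substrates; each thin line is a gene, black circles are the median over these genes, and grey squares are the median over all 1052 genes. The median of the 35 genes is 14.19 on cellulose, 11.11 on pine and 6.13 on maltose.

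Most calls of rises, and a smaller share of the calls of falls, were repeated in the fits that left out 1 maltose library. The median difference was 2.31 over the rises and -1.48 over the falls, so the falls lay closer to the size threshold. Among the calls with solved maltose libraries, 155 were rises and 50 were falls. Fits without a cellulose library keep only 1 cellulose library. They hold no spread on cellulose and take it from the other substrates, so their counts are not given. Without maltose library 1, 150 of the 155 rises and 36 of the 50 falls were called. The numbers were 140 and 43 without maltose library 2, and 137 and 38 without maltose library 3.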

How the data were processed

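Polyadenylated RNA was sequenced as paired reads, per the labels' protocols. The authors deposited 1 normalised log2 read count per gene and substrate, per the file headers. TopHat2, HTSeq and DESeq 1.5 are named, without roles, per the submitters' processing notes. How the 1052 genes were chosen, which constant was added and which genome build served are not given in these sources.

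Each deposited log2 value was taken as an average, across a substrate's libraries, of log2(reads × scale + 1). The 16 lowest values of a column gave the scales, which were refined and checked on its 60 lowest, so the values checked were not held out. All 60 were whole within 1e-09 on each of the 5 substrates, and with scales moved by 1% none was, except the 1 aspen value of exactly 0. Reads were then sought within a 16-fold range per library above a value of 6 (all sets of reads below it), widened to 1024-fold where none matched, and kept where 1 set matched. Columns of 3 libraries were not attempted above 12. No pair of libraries of a substrate agreed within sampling noise (chi-square at least 11.6 times its degrees of freedom).

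Differences were tested with limma 3.58.1 in R 4.3.3, on library values in 1 fit over 5 substrates with a trend of the spread over level and Benjamini-Hochberg adjustment over 1052 genes. Where a substrate was not solved, the deposited mean was kept and the spread came from the other substrates. The 1 added to normalised reads makes differences of genes with few reads too small. Read recovery used numba 0.67.0 and NumPy 2.4.6 under Python 3.11.15, and matplotlib 3.10.9 drew the figures. Both steps were tested on simulated data.

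The comparison and the rules were chosen with earlier results of these data known. Genes given by number were called in the full fit and in each fit without 1 cellulose or maltose library, were solved on both substrates, did not overlap between them and had the largest differences, 2 in each direction because no names were available. Lists by enzyme family could not be formed. Genes that share reads with a near-identical copy could not be recognised. The alternatives were other scalings, constants, filters, genes, thresholds and libraries.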

Additional observations from a re-analysis of the deposited data

How the results depend on the processing

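Of the 17 alternatives, the 5 that leave out 1 library were part of the rule that chose the 4 numbered genes. These genes also kept their direction and call under the others. Other thresholds, filters and sets of genes, and fits with fewer substrates or no trend, leave the difference as it was. Direction was therefore fixed there, and a choice by large differences favours passing the size thresholds for these genes. Over all 17, their log2 differences ranged from 7.47 to 11.22 for gene 1319085, 7.57 to 10.79 for gene 1250928, -3.34 to -2.15 for gene 1257860 and -3.27 to -2.03 for gene 1340264. The scalings changed the count of lower calls, 60 as deposited, and the median difference, 0.10 as deposited. Median centring gave 204 and -0.51, quantile normalisation 153 and -0.39, and the median shift 94 and -0.081. Adding 32 reads before the log left 38 lower calls; in genes with few reads this constant shrinks a difference by construction. A size threshold of 4-fold gave 113 calls, 97 higher and 16 lower. Leaving out 1 maltose library at a time, on the 898 solved genes, gave 181 to 194 calls, 139 to 154 higher and 40 to 50 lower. On the same genes with all libraries there were 206 calls, 155 higher and 51 lower. Leaving out any 1 cellulose or maltose library gave a median difference of 0.04 to 0.13. A fit without 1 cellulose library holds no spread on cellulose, so its calls are not counted here. With only the cellulose and maltose libraries in the fit, 187 genes were called, 142 higher and 45 lower. That fit on solved genes only, chosen after seeing the data, called 177. No paired analysis was possible because the deposited columns carry no replicate numbers. With 2 cellulose libraries the spread on cellulose is poorly known, and the least deep library, maltose library 1, limits what can be said of genes with few reads.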

Other observations

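The cellulose libraries also differed from each other. Of the 166 genes that rose, 114 (68.7%) were higher in cellulose library 1 than in library 2, and of the 35 that rose at least 64-fold, 30 were. Over all 1052 genes this share was 52.6%. The median difference of library 1 from library 2 was 0.31 log2 units over the genes that rose, -0.25 over those that fell and 0.04 over all genes. A difference of at least 2-fold between the cellulose libraries was found in 47 of the 166 rises (28.3%), in 12 of the 60 falls (20.0%) and in 199 of all genes (18.9%). Genes were chosen by the mean of both cellulose libraries, and these shares are given without a test. The libraries differed at least 4-fold in 10 of the 166 rises, in 0 of the 60 falls and in 41 of all 1052 genes. The widest of the 10 rises had 1507 and 182 reads on cellulose and 43, 93 and 95 on maltose. In the opposite sense 1 gene that rose had 113 and 875 reads on cellulose and 9, 35 and 64 on maltose. The cause of these differences was not tested.

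Over the 898 solved genes, the Pearson correlation of log2 values was 0.960 between the cellulose libraries. It was 0.950 and 0.958 between maltose library 1 and the other maltose libraries, and 0.984 between maltose libraries 2 and 3. Between cellulose and maltose libraries it was 0.837 and 0.857 for maltose library 1 and 0.727 to 0.760 for maltose libraries 2 and 3. These describe genes within libraries, and genes are not independent replicates.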
